A study of Mus musculus with 6 samples.

Results

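Macrophage-only PPARγ regions that also carried PU.1 and C/EBPβ were examined, called dual-factor regions here. They were chosen by called positions: regions of the final macrophage PPARγ list that shared no base pair with the final adipocyte PPARγ list and overlapped, by at least 1 bp, both a PU.1 region and a C/EBPβ region of macrophages. This gave 799 of the 1961 macrophage PPARγ regions, 40.7% (95% Wilson interval 38.6 to 42.9). The other macrophage-only regions held PU.1 alone (338), C/EBPβ alone (216) or neither factor (394). Occupancy was measured by chromatin immunoprecipitation and sequencing (ChIP-seq) in primary peritoneal macrophages of male C57BL/6 mice, elicited by 1 ml of 3% thioglycollate injected 3 days earlier and kept in culture for 24 h so that adherent cells could be harvested, and in adipocytes differentiated from the 3T3-L1 preadipocyte line. No genetic change or drug treatment is named for any group. Macrophages of at least 4 animals were pooled for a sequencing run, and the adipocytes are a single established line. Each of the 6 groups is 1 library: PPARγ and H3K9Ace in each cell type, and PU.1 and C/EBPβ in macrophages, where H3K9Ace is histone H3 carrying acetyl groups on lysine 9. The lists hold positions in build mm8 and no gene names or expression values, so the cell labels were not set against marker genes and regions are given by position.

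PPARγ is a nuclear receptor that binds DNA as a heterodimer with RXR and responds to fatty acid ligands. It is the master regulator of fat cell differentiation, and in macrophages it is known for its part in lipid handling and in restraining inflammatory genes. PU.1, an ETS-family factor, is needed for the development of macrophages and other myeloid cells and of B cells. C/EBPβ, a basic leucine zipper factor, acts in both lineages: early in adipocyte differentiation and in macrophage activation. H3K9Ace marks active promoters and enhancers.

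Most dual-factor regions lay in chromatin acetylated in macrophages. Of the 799 regions, 555 overlapped a macrophage H3K9Ace region, 69.5% (66.2 to 72.6), against 58.3% of all macrophage PPARγ regions. Adipocyte H3K9Ace was found at 252 of them, 31.5% (28.4 to 34.8), against 35.5% of all macrophage PPARγ regions. Both figures for all macrophage PPARγ regions include those shared with adipocytes. In the other macrophage-only classes, adipocyte H3K9Ace was found at 27.5% (PU.1 alone), 33.3% (C/EBPβ alone) and 25.9% (neither factor). Among the dual-factor regions, acetylation was seen in macrophages alone at 338, in both cell types at 217, in adipocytes alone at 35 and in neither at 209. The macrophage share was 37.9 percentage points above the adipocyte share, and an exact 2-sided McNemar test of 338 against 35 regions gave p = 2.21e-63. The adipocyte H3K9Ace list was the longer, with 51257 regions against 37263. H3K9Ace was not used to choose the regions, but the choice asked for macrophage binding and no adipocyte PPARγ, which may favour this direction beforehand. Macrophages alone also exceeded adipocytes alone with PU.1 alone (95 against 20), C/EBPβ alone (61 against 11) and neither factor (71 against 29). So they did at sites of both factors without PPARγ (3683 against 619). Both-factor PPARγ regions shared with adipocytes went the other way (8 against 16). With 1 library a group, the McNemar test and those that follow run over regions, treat them as independent, and compare lists rather than replicated cell populations.

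**Figure D1:**
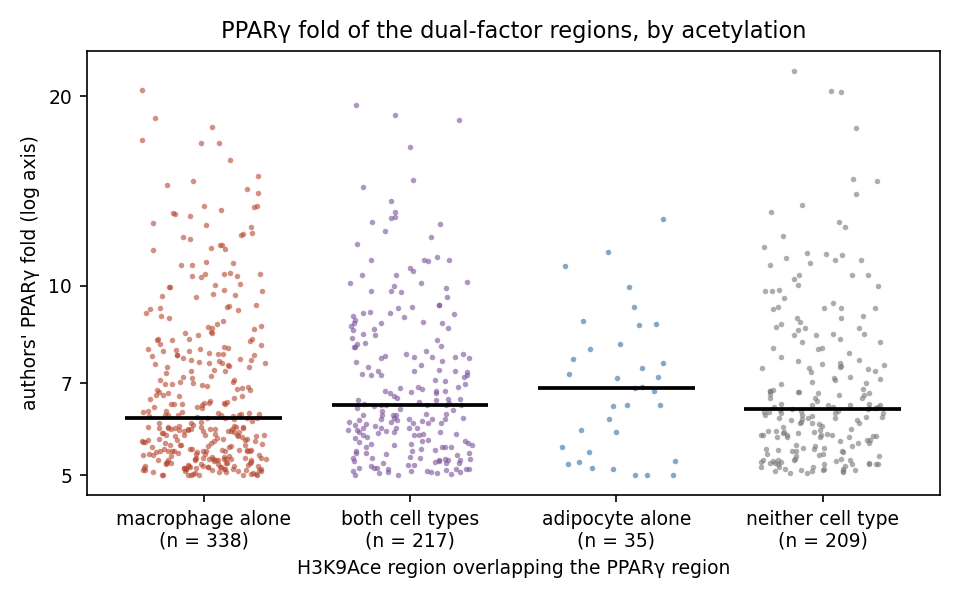
Fold of each dual-factor region (vertical axis, log scale, the peak caller's value) by the cell type in which an H3K9Ace region overlapped it. Each point is 1 region and the black line is the median: 6.17 for macrophages alone, 6.46 for both, 6.88 for adipocytes alone and 6.36 for neither, with widely overlapping ranges.

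The strength of PPARγ binding is given by the authors' fold over a control and by their peak height, both part of the values that chose the list, so they serve as description. The dual-factor regions had a median fold of 6.30 (quartiles 5.50 and 8.04, highest 21.9), a median height of 14 (11 and 19) and a median width of 359 bp (262 and 492). Regions with PU.1 alone had a median fold of 6.18 and a width of 316 bp. Those with C/EBPβ alone had a median fold of 6.28 and a width of 302 bp. Regions with neither factor were weaker and narrower in this list, with a median fold of 5.75, height of 10 and width of 217 bp. The strongest were PPARγ regions with both factors that were shared with adipocytes, at a median fold of 8.24 and a height of 23. Within the dual-factor regions, fold differed little between acetylation states, as the plot of fold by acetylation shows. Over the quartiles of fold in ascending order, 72.5%, 71.0%, 65.3% and 69.0% were acetylated in macrophages, and the intervals of all quartiles overlapped. Of the 100 dual-factor regions with the highest fold, 72 were acetylated in macrophages and 30 in adipocytes.

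The individual regions span the whole range of chromatin states. Of the 4 highest folds in the set, 3 belonged to regions without H3K9Ace in either cell type. The highest, on chromosome 5 at 141266756 to 141267034, had a fold of 21.9 and a height of 39. The PU.1 centre lay 22 bp and the C/EBPβ centre 45.5 bp from its own centre, on opposite sides. The region on chromosome 3 at 51297632 to 51298033 followed in this state, with a fold of 20.4 and a height of 58. The region on chromosome 10 at 66600257 to 66600642 had a fold of 20.3 and a height of 54. The rule of naming the 5 highest folds in each acetylation state gave 2 more: 52587928 to 52588278 on chromosome 13 (fold 17.8) and 84525642 to 84526198 on chromosome 3 (14.8). In these 5 regions both factor centres lay within 73 bp of the PPARγ centre.

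Among regions acetylated in macrophages alone, the highest fold was 20.5, on chromosome 18 at 4313904 to 4314445. That region also had the greatest peak height of all 799, 66, and its PU.1 and C/EBPβ centres lay 2.5 bp apart, and the overlapping H3K9Ace region was 2600 bp wide. The next in this state was on chromosome 7 at 81722702 to 81723237 (fold 18.5, height 54). Chromosome 11 at 114714158 to 114714555 had a fold of 17.9, with the C/EBPβ centre 3.5 bp and the PU.1 centre 30 bp from that of PPARγ. Chromosome 1 at 167974852 to 167975188 (fold 17.0) and chromosome 12 at 109086911 to 109087344 (16.8) completed the 5. The last overlapped an H3K9Ace region of 8350 bp, and its 3 centres fell within 15.5 bp. None of these 5 overlapped a longer deposited list of adipocyte PPARγ regions, named as combining 3 datasets and called the combined list here. Of the regions named above without H3K9Ace in either cell type, only 51297632 to 51298033 on chromosome 3 overlapped it. That region lay 15.4 kb from the nearest region of the final adipocyte list.

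Regions acetylated in both cell types were led by chromosome 19 at 34581704 to 34582155, with a fold of 19.4 and a height of 55. Its PU.1 and C/EBPβ centres lay on opposite sides of the PPARγ centre and 251.5 bp apart, and an adipocyte PPARγ region lay 268 bp away. Chromosome 12 at 86274439 to 86275334 had a fold of 18.7, a height of 63 and a width of 895 bp. A fold of 18.3 was found at 141017287 to 141017687 on chromosome 5, where the C/EBPβ and PPARγ centres were 1 bp apart. The remaining regions were 182240900 to 182241298 on chromosome 1 (16.6) and 86183826 to 86184284 on chromosome 4 (14.7). All 5 overlapped the combined adipocyte list, although none overlapped the final one.

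Among the 35 regions acetylated in adipocytes alone, the smallest state, the highest fold was below that of each other state. Their median fold was not lower, at 6.88 against 6.17 for macrophages alone, 6.46 for both and 6.36 for neither. The highest, on chromosome 7 at 25414434 to 25414876, had a fold of 12.8 and a height of 55, and ranked 39 among the 799. It overlapped an adipocyte H3K9Ace region of 4350 bp and was 313 kb from the nearest adipocyte PPARγ region. Chromosome 4 held 2 of the others, 59533995 to 59534365 (fold 11.3) and 116170728 to 116171193 (9.26). The remaining ones were 12538916 to 12539329 on chromosome 19 (10.7) and 75711761 to 75712179 on chromosome 8 (9.93). These 4 overlapped the combined adipocyte list. They were absent from the final adipocyte list and acetylated in adipocytes alone.

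Acetylation was compared with that of the neighbouring classes to see whether it differed where a factor or PPARγ was missing. Dual-factor regions were acetylated in macrophages more often than regions with PU.1 alone, 69.5% against 49.7% (168 of 338, 44.4 to 55.0). Fisher's exact test gave odds 2.30 times as high, with a 95% interval of 1.76 to 3.01 and adjusted p = 1.11e-09. Regions with C/EBPβ alone were acetylated in 56.5% of cases (122 of 216, 49.8 to 62.9), and the odds ratio of 1.75 had an interval of 1.27 to 2.41 (adjusted p = 0.000902 by Fisher's exact test). Regions with neither factor had the lowest share, 36.5% (144 of 394, 31.9 to 41.4), with a ratio of 3.95 and an interval of 3.04 to 5.14 (adjusted p = 2.05e-26 by Fisher's exact test). These p-values are 2-sided and adjusted over the 10 comparisons of 5 classes and 2 marks.

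The classes also differ in width and fold, as given above. Counting a region as acetylated only when H3K9Ace held its centre gave odds ratios of 2.05, 1.87 and 3.49 over PU.1 alone, C/EBPβ alone and neither factor. In the upper 50% of the macrophage list by fold they were 2.12, 1.96 and 3.31. All 6 passed the threshold after adjustment by Fisher's exact test. Neither setting matched the classes for width and fold, and whether these bear on the acetylated share was not tested.

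PU.1 regions that overlapped C/EBPβ without any PPARγ region of either final list numbered 12218. Of these, 55.4% (54.6 to 56.3) were acetylated in macrophages, below the dual-factor regions, whose odds were 1.83 times as high (interval 1.56 to 2.14, adjusted p = 1.42e-14 by Fisher's exact test). This ratio compares unlike intervals. The mark was counted on PPARγ regions (median width 359 bp) for the dual-factor class and on PU.1 regions (median 300 bp) for the class without PPARγ. The PU.1 region nearest each dual-factor region had a median width of 379 bp. The C/EBPβ regions had 307 bp without PPARγ and 388 bp at dual-factor regions. With the centre rule, applied to PPARγ centres at dual-factor regions and to PU.1 centres in the class without PPARγ, the odds ratio was 1.64. The PU.1 and C/EBPβ lists give no height or fold, so the strength of these factors was not compared. Weaker PPARγ calls were not excluded from the 12218. Of them, 567 overlapped a longer deposited adipocyte PPARγ list, and the class held 9677 regions when the longer macrophage PPARγ list was used.

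**Figure D2:**
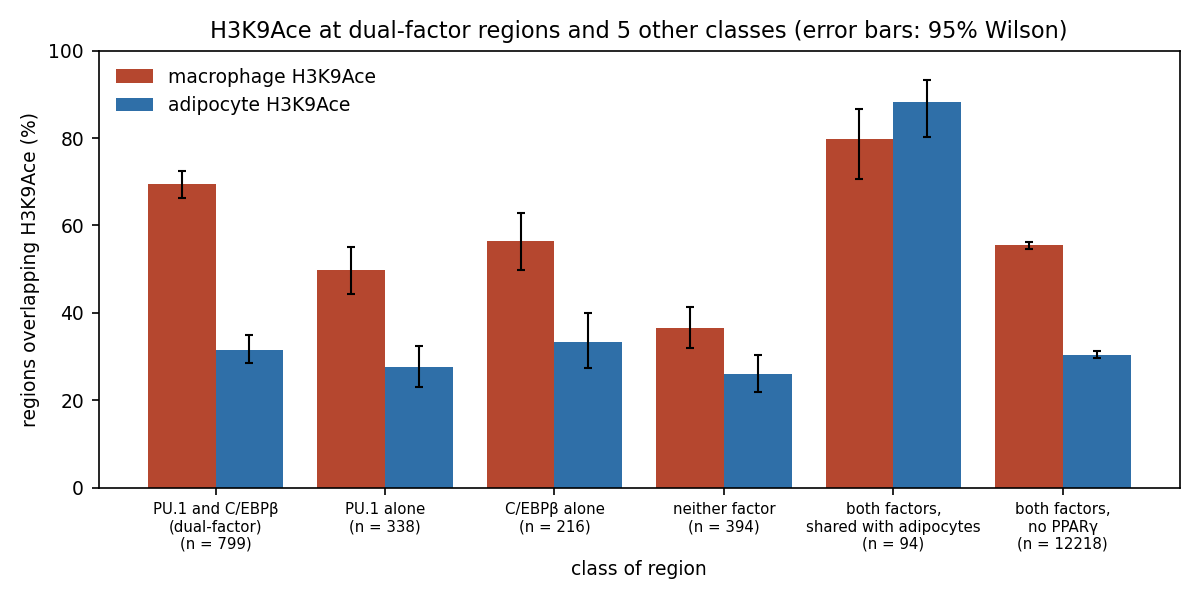
Share of regions overlapping macrophage (red) and adipocyte (blue) H3K9Ace in the dual-factor class and 5 other classes, with 95% Wilson intervals as error bars. Among classes absent from the adipocyte list, the red bar is highest for dual-factor regions at 69.5%, while the blue bars lie between 25.9% and 33.3%.

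For adipocyte H3K9Ace, the dual-factor regions differed past the threshold from the shared class, and from none of the other 4 classes. Of the 94 shared regions with both factors, 88.3% (80.2 to 93.3) overlapped adipocyte H3K9Ace, against 31.5%. Dual-factor over shared regions gave a ratio of 0.0611, interval 0.0289 to 0.118 (adjusted p = 2.05e-26 by Fisher's exact test). The adipocyte PPARγ list itself separated these classes, which may favour this direction beforehand. Nothing is read from this p-value beyond that choice. In macrophages the same pair of classes was closer, 69.5% against 79.8% (70.6 to 86.7). That odds ratio, 0.576 (0.322 to 0.990), did not pass after adjustment (Fisher's exact test, adjusted p = 0.0695). It passed with the combined adipocyte list, at 0.553 (adjusted p = 0.000870), and in the upper 50% by fold, at 0.434 (adjusted p = 0.0153), both by Fisher's exact test.

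Differences in adipocyte acetylation from the remaining classes were not detected. The odds ratio was 1.21 (0.909 to 1.63) over PU.1 alone, 0.921 (0.662 to 1.29) over C/EBPβ alone, 1.32 (0.999 to 1.75) over neither factor and 1.06 (0.902 to 1.24) over PU.1 with C/EBPβ and no PPARγ. The adjusted p-values by Fisher's exact test were 0.226, 0.622, 0.0723 and 0.528. These ratios depended on the lists. When macrophage-only was defined against the combined adipocyte list, the last of them was 0.666, interval 0.542 to 0.813 (adjusted p = 7.22e-05 by Fisher's exact test). Use of the longer macrophage list, which also holds weaker regions, raised the number of dual-factor regions to 3302. There the ratio over C/EBPβ alone was 0.655 and that over neither factor 1.41 (adjusted p = 1.03e-09 and 1.32e-14 by Fisher's exact test).

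Acetylated dual-factor regions usually lay inside the acetylated stretch. The centre of the PPARγ region was within macrophage H3K9Ace at 507 of the 555, 91.4% (88.7 to 93.4). The H3K9Ace regions touched had a median width of 1850 bp (quartiles 1150 and 3175), against 1050 bp over the whole macrophage list. Wider regions are met more readily, and the median at PPARγ regions with neither factor was also 1850 bp. In all, 533 macrophage H3K9Ace regions held a dual-factor region, 1.43% of the list, and 23 of them held more than 1. Of the 244 dual-factor regions without macrophage H3K9Ace, 83 had such a region within 1 kb and 9 had one on each side. The median gap from these 244 to macrophage H3K9Ace was 2.31 kb. For the 547 without adipocyte H3K9Ace, the median gap to that mark was 16.9 kb.

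The 3 regions at a site were nearly always stacked on each other. A stretch common to PPARγ, PU.1 and C/EBPβ was present at 793 of 799 dual-factor regions, 99.2% (98.4 to 99.7). The choice required each factor to touch the PPARγ region. Where each covers more than 50% of it, a common stretch is fixed in advance, and at 651 regions each covered at least 50%. The share is therefore a description. The common stretch had a median length of 252 bp. PU.1 covered a median of 83.2% of the PPARγ region and C/EBPβ 87.5%. At 754 of the regions there was a single PU.1 region, and at 769 a single C/EBPβ region.

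Centres were close as well, within bounds that the overlap sets. The median distance from the PPARγ centre was 61.5 bp to PU.1 (quartiles 26.3 and 110) and 56.5 bp to C/EBPβ (24.5 and 105). PU.1 was the nearer factor at 383 regions and C/EBPβ at 414, 51.8% (48.3 to 55.3), an interval that includes equal shares. The PPARγ centre lay between the other centres at 255 regions, PU.1 in the middle at 255 and C/EBPβ in the middle at 287. The intervals of these shares overlapped. All 3 centres fell within 100 bp at 425 regions, 53.2% (49.7 to 56.6), and at 60 of the 100 with the highest fold. The PU.1 and C/EBPβ centres were a median of 51.5 bp apart. At sites without PPARγ, where these regions had to overlap each other, the median was 45.0 bp, and it was 51.0 bp at the 793 dual-factor regions whose factor regions overlapped. By acetylation state the median was 41.5 bp in neither cell type, 50.8 bp in macrophages alone, 49.5 bp in adipocytes alone and 68.5 bp in both. These distances are given as description and were not tested, and region width limits them.

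**Figure D3:**
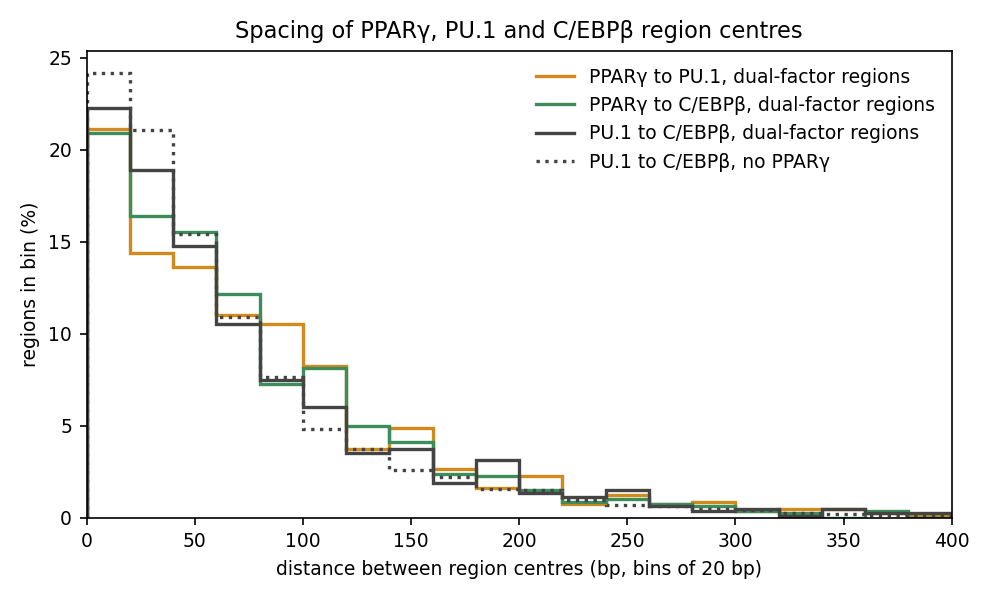
Distances between region centres (horizontal axis, bins of 20 bp) as a percentage of regions. Solid lines are the 799 dual-factor regions and the dotted line is PU.1 to C/EBPβ at 12218 sites without PPARγ in either final list. All curves are highest in the first bin, with 22.3% of dual-factor regions and 24.2% of sites without PPARγ having the PU.1 and C/EBPβ centres within 20 bp.

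The membership rule has an edge at single base pairs. The smallest overlaps inside it were with C/EBPβ: 1 bp on chromosome 2 at 50911664 to 50912177, and 2 bp on chromosome 3 at 28203599 to 28203771 and on chromosome 6 at 117782526 to 117782727. Just outside lay chromosome 16 at 10914093 to 10914429, 5 bp short of C/EBPβ. Chromosome 2 at 44774858 to 44775035 and chromosome 10 at 66399480 to 66399856 were each 6 bp short of PU.1. Few regions sat at the edge: 11 of 799 overlapped a factor by under 20 bp, and 22 of the 554 macrophage-only regions with a single factor had the other within 100 bp. Requiring each factor to cover at least 50% of the PPARγ region left 651.

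In the final list, adipocyte PPARγ was mostly distant from the dual-factor regions, as it was from the other macrophage-only regions. The nearest adipocyte region was a median of 180 kb away (quartiles 47.9 and 515 kb), with 85 of 799 within 10 kb, 14 within 1 kb and 2 within 100 bp. It was nearer for regions acetylated in both cell types, at a median of 89.8 kb, and in adipocytes alone, at 58.4 kb. The medians were 219 kb for regions acetylated in macrophages alone and 246 kb for those acetylated in neither. In the other macrophage-only classes the median was 178 kb for PU.1 alone, 184 kb for C/EBPβ alone and 236 kb for neither factor. The last is over the 380 regions of that class with an adipocyte PPARγ region on their chromosome. A further adipocyte region lay within 10 kb of 10.6% of dual-factor regions and 10.4% of all macrophage PPARγ regions. As the adipocyte list helped to choose the regions, these values carry no test.

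The combined adipocyte list holds 12430 regions against 2634 in the final one. It overlapped 169 of the 799 dual-factor regions, 21.2% (18.5 to 24.1). Of all macrophage PPARγ regions, 28.2% overlapped it, a figure that includes the shared ones. In the other macrophage-only classes the share was 15.4% for PU.1 alone, 30.1% for C/EBPβ alone and 13.5% for neither factor. The choice of regions used adipocyte PPARγ, so nothing is read from these shares. The 169 were spread unevenly over acetylation states. The list overlapped 107 of 217 regions acetylated in both cell types, 49.3% (42.7 to 55.9), and 16 of 35 acetylated in adipocytes alone, 45.7% (30.5 to 61.8). It overlapped 25 of 338 acetylated in macrophages alone, 7.40% (5.06 to 10.7), and 21 of 209 acetylated in neither, 10.0% (6.67 to 14.9). The regions with PU.1 alone showed 37.0% and 35.0% in the adipocyte-acetylated states, and 7.37% and 7.33% in the others. Regions with C/EBPβ alone had 54.1% and 63.6%, with 14.8% and 19.3% in the others. The share in the combined list also rose over the quartiles of macrophage fold: 14.5%, 15.0%, 23.1% and 32.0%. Without the 169 regions, 630 dual-factor regions were left, and 20.5% of these were acetylated in adipocytes.

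**Figure D4:**
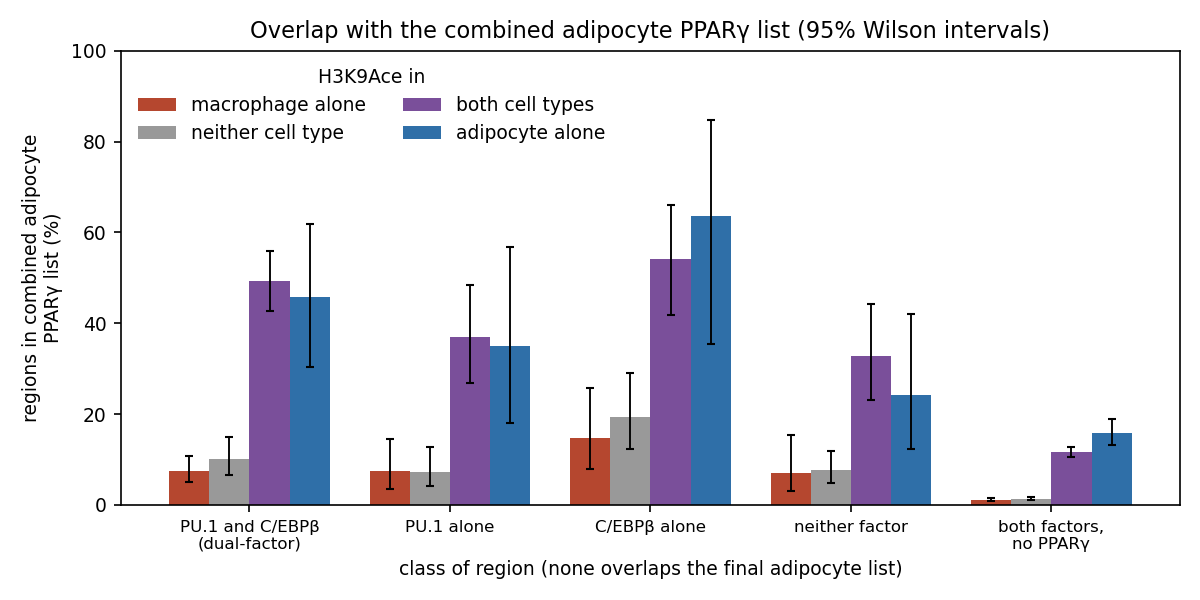
Share of regions overlapping the combined adipocyte PPARγ list, by class and by the cell type in which H3K9Ace was present, with 95% Wilson intervals as error bars. In the dual-factor class the bars with adipocyte acetylation stand at 49.3% and 45.7%, those without at 7.40% and 10.0%, and the other classes show the same order of the state pairs.

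Dual-factor regions had further factor regions nearby. Besides those overlapping them, 716 of 799 had another PU.1 region within 10 kb, 89.6% (87.3 to 91.5), with a mean of 3.06. Another C/EBPβ region lay within 10 kb of 649, 81.2% (78.4 to 83.8). Over all macrophage PPARγ regions these shares were 82.9% and 72.9%. The shared regions with both factors were close to the dual-factor regions, at 88.3% (80.2 to 93.3) and 81.9% (72.9 to 88.4). Regions with C/EBPβ alone had 81.5% (75.8 to 86.1) and 74.5% (68.3 to 79.9). Regions with neither factor reached 68.0% (63.3 to 72.4) and 60.2% (55.2 to 64.9). Regions with PU.1 alone had 87.6% (83.6 to 90.7) for further PU.1 regions and 68.0% (62.9 to 72.8) for C/EBPβ. The longer macrophage PPARγ list, which adds weaker regions, placed another PPARγ region within 10 kb of 640 of them, 80.1% (77.2 to 82.7), against 70.0% of all macrophage PPARγ regions. That share was 78.7% (69.4 to 85.8) for the shared regions with both factors, 70.4% (64.0 to 76.1) for C/EBPβ alone, 63.0% (57.8 to 68.0) for PU.1 alone and 57.1% (52.2 to 61.9) for neither. By acetylation state, the mean number of further PU.1 regions was 3.29 for macrophages alone, 3.35 for both, 2.31 for adipocytes alone and 2.51 for neither. These counts come from the lists that chose the regions and were not tested.

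All autosomes held dual-factor regions. Chromosome 2 had the most, 74, followed by chromosome 1 with 70. As a share of the macrophage-only regions of a chromosome they ranged over the autosomes from 34.8% (24.5 to 46.9) on chromosome 12 to 63.8% (50.9 to 74.9) on chromosome 19, where 37 of 58 carried both factors. Chromosome X stood below, with 2 of 23 (8.70%, 2.42 to 26.8), and chromosome Y had 0 of 14, which allows a share of up to 21.5% by the Wilson interval. The PU.1 list held 866 regions on chromosome X and the C/EBPβ list 393, and 5 and 4 on chromosome Y. These are counts from male cells with a single copy of each sex chromosome, and the difference between chromosomes was not tested.

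**Figure D5:**
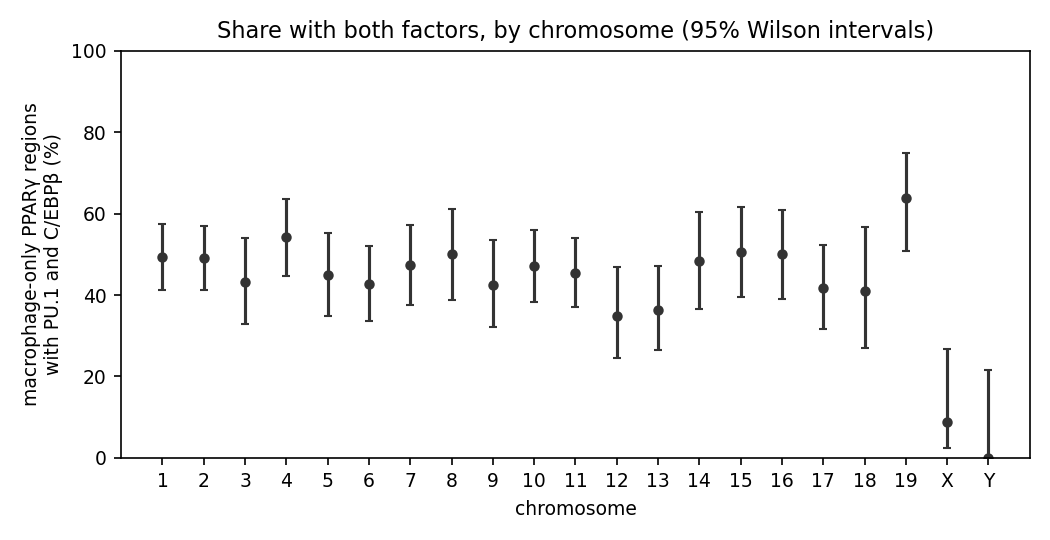
Share of macrophage-only PPARγ regions with both PU.1 and C/EBPβ (vertical axis, percent) on each chromosome, with 95% Wilson intervals. Autosomes lie between 34.8% and 63.8% with overlapping intervals for most, and chromosomes X (8.70%) and Y (0%) lie below.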

How the data were processed

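ELAND placed the 36-bp reads on mm8 with at most 2 mismatches, and reads without a unique best match were dropped, per the labels' protocols. The macrophage PPARγ data joined 2 sequencing runs and every other library 1, per the labels' protocols. The settings and control of the peak caller, and the aligner's version, were not given in the sources used here. Read depth is unknown. Per the file headers the deposited PPARγ lists carry a fold per region (a ratio to that control), a peak height (a whole-number signal whose scaling is not stated) and a false discovery rate, read as a percent because the longer macrophage list exceeds 1. In the final macrophage list the lowest deposited fold is 5, the lowest height signal 9 and the rate 0.24 percent throughout. The other deposited lists hold positions only. The authors subtracted areas of input bias, per the series design text, and no dual-factor region overlapped the 460 masked intervals. For the recomputed results, regions of the longer macrophage list that overlapped a masked interval were removed. The adipocyte H3K9Ace list held 20 repeated rows, counted once.

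Overlap meant at least 1 bp, with intervals taken as half-open. Ranges after shares are 95% Wilson intervals: they hold counting error alone and assume independent regions. Fisher's exact test (2-sided) compared classes, the sample odds ratio was given with its exact conditional 95% interval, and p-values of the 10 tests were adjusted by Benjamini-Hochberg, with a threshold of 0.05. An exact McNemar test compared the cell types. Values from lists that chose the regions were described without tests. Named regions were the 5 highest folds in each of 4 acetylation states, every chain of at least 3 dual-factor regions within 10 kb, and the 3 regions nearest to the edge of the rule on each side. The regions and lists were chosen with earlier results of these data known. Overlap functions and tests were tested on simulated data. Python 3.11.15 with pandas 2.3.3, numpy 2.4.6 and scipy 1.17.1 was used. The RefSeq tables at hand are in another build than mm8, so no gene, annotation or sequence was joined to these positions. The groups have no replicates, so no library could be left out.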

Additional observations from a re-analysis of the deposited data

How the results depend on the processing

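The results were recomputed under 7 other settings, giving 96 values, of which 81 kept their direction and their side of the threshold or moved little. The macrophage H3K9Ace odds ratios of dual-factor regions over PU.1 alone, C/EBPβ alone, neither factor and both factors without PPARγ stayed above 1 and past the threshold in all 28 values. The number of dual-factor regions was 3302 with the longer macrophage list and 427 in the upper 50% by fold, by construction. Their macrophage H3K9Ace share was 63.5% when the mark had to hold the centre and 79.8% within 1000 bp; the adipocyte share was 37.9% within 1000 bp. With macrophage-only defined against the combined adipocyte list the adipocyte share was 20.5%, and the adipocyte odds ratio turned to 0.991 over PU.1 alone, 0.979 over neither factor and 0.666 over both factors without PPARγ, and the macrophage ratio to shared regions passed at 0.553, as it did at 0.434 in the upper 50% by fold. With the longer macrophage list the adipocyte ratio turned to 0.907 over PU.1 alone and passed at 0.655 over C/EBPβ alone and 1.41 over neither factor. Over C/EBPβ alone it turned to 1.13 in the upper 50% by fold. The cause of these changes was not tested. No paired analysis was possible because each group holds 1 library. Unknown depth limits every absence from a list: a region not called may be weakly bound or acetylated.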

Other observations

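Dual-factor regions sometimes lay in groups. Joining those whose edges were within 10 kb gave 73 chains with 152 of the 799 regions, and 6 of the chains had 3 regions. Within 50 kb there were 115 chains, the largest of 5 regions. Of the 67 chains of 2 regions within 10 kb, 41 had both regions acetylated in macrophages, 18 had 1 and 8 had none. The tightest group of 3 was on chromosome 3, spanning 3766 bp: the region at 109379748 to 109380264 had a fold of 14.4 and a height of 43, and its neighbours at 109381914 to 109382749 and 109383055 to 109383514 had folds of 5.47 and 5.84. All were acetylated in macrophages alone. A second group, on chromosome 19, spanned 5729 bp and held weaker regions, with folds of 5.65 and 5.59 at 12501982 to 12502298 and 12503108 to 12503557 (acetylated in macrophages alone) and 7.78 at 12507209 to 12507711 (acetylated in both cell types).

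The other groups mixed acetylation states, as the group on chromosome 19 did. On chromosome 12 the strong region at 86274439 to 86275334 (fold 18.7, both cell types) lay between one at 86270792 to 86271287 (5.29, macrophages alone) and one at 86283038 to 86283351 (9.58, both). The last was 114 bp from an adipocyte PPARγ region. On chromosome 11 the strongest region of its group, at 68275481 to 68276047 (fold 14.7, height 41), was acetylated in neither cell type, while those at 68284374 to 68284752 (6.69) and 68290727 to 68291132 (5.03) were acetylated in macrophages alone. On chromosome 6 the same held: the region at 87474804 to 87475085 (fold 10.0) had no acetylation, and those at 87482779 to 87483295 (6.55) and 87484307 to 87484537 (5.02) had it in macrophages alone. On chromosome 7 the strongest, at 142208490 to 142209023 (13.4), and its neighbour at 142207326 to 142207943 (7.27) were acetylated in macrophages alone, and the region at 142199479 to 142199988 (6.88) in both cell types.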
